A study of Bos taurus and Bos indicus with 6 samples.

Results

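The 10 genes followed here belong to cellular antioxidant defence and were measured in circulating white blood cells: the peroxiredoxins PRDX1, PRDX2, PRDX3, PRDX5 and PRDX6, thioredoxin (TXN), glutathione peroxidase GPX1, superoxide dismutase SOD1, catalase (CAT) and the transcription factor NFE2L2. They were taken by gene symbol from the annotation of the array, which assigned them 16 of the 24016 tested probe sets; all 10 genes were present. The animals were 3 Brahman and 3 Holstein cattle, annotated as Bos indicus and Bos taurus, all female and 6 months old, and all under heavy challenge with the cattle tick Rhipicephalus microplus. Each animal gave 1 unsorted leukocyte pellet from lysed jugular blood and 1 Affymetrix bovine array. All 6 carried ticks, so a difference between the breeds that exists without ticks is part of every value, and breed cannot be told apart from anything else that differed between the 2 groups of animals.

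Hydrogen peroxide is produced in every cell by respiration and, in phagocytes, in large amounts by the NADPH oxidase. Superoxide dismutases make it from superoxide, and catalase, the peroxiredoxins and the glutathione peroxidases remove it. Most peroxiredoxins are recharged by thioredoxin, and glutathione peroxidases by glutathione. NFE2L2, also known as NRF2, is held in the cytoplasm and degraded through KEAP1; oxidants release it to switch on many antioxidant genes.

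Values are log2 RMA expression values, in which array medians lay between 6.54 and 6.61, and each probe set is compared only with itself across animals. The limma difference is Brahman minus Holstein, negative where the Brahman animals read lower, and adjusted p-values cover all tested probe sets. The pan-leukocyte markers PTPRC, CD53, LCP1 and CORO1A were all measured above the lower quartile of the array, 5.08, with summed levels of 14.43 to 14.52 in Brahman and 14.43 to 14.61 in Holstein. T cell markers had higher summed levels in Brahman, 13.62 to 13.76 against 13.22 to 13.39 in Holstein. At an unadjusted p under 0.05, 6 of 9 measured markers were higher, against 6.23% of all genes, while CD3G differed by -0.04. Of 4 measured B cell markers 2 were higher at that threshold, against 6.23% of all genes. These were BLK at 0.97 and CR2 at 0.35, while CD79A at -0.23 and MS4A1 at -0.14 went the other way. Summed levels of the 4 B cell markers overlapped, at 13.12 to 13.27 in Brahman and 13.12 to 13.35 in Holstein. Monocyte markers went in both directions: of 7 listed 4 were measured, all above the lower quartile, with a median difference of -0.43 and overlapping summed levels of 10.81 to 11.20 in Brahman and 11.13 to 11.77 in Holstein. Among them CD14 differed by -0.94 (adjusted p = 0.141), CD68 by -0.54, CSF1R by -0.31 and VCAN by 0.92 (adjusted p = 0.0719). The neutrophil list had a median of 0.03. At an unadjusted p under 0.05, 1 of its 8 measured markers was lower, against 9.62% of all genes, and 1 was higher, against 6.23%. These were FCGR3A at -0.78 (adjusted p = 0.346), where the breeds overlapped, and ALPL at 1.42 (adjusted p = 0.0834), where they did not. The part of these cell types in the antioxidant values was not tested. The hybridisation spike-in controls read 9.64, 9.71 and 9.80 on the Brahman arrays, below all of the Holstein arrays at 9.94, 10.38 and 10.10. In a whole cell pellet, fewer cells of a type and less RNA per cell cannot be told apart.

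None of the antioxidant genes passed the test over all probe sets (limma, 0 of 16 probe sets at an adjusted p under 0.05, against 0.137% of all tested probe sets). Lower values in Brahman were nonetheless the more frequent direction, led by NFE2L2 and PRDX2. At an unadjusted p under 0.05, 3 of the 16 probe sets were lower in Brahman, against 6.47% of all probe sets, and 0 were higher, against 7.12%. The 3 were 1 probe set each of NFE2L2, PRDX2 and PRDX6. The median difference of the 16 probe sets was -0.09, against 0.02 over all probe sets.

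Bright probe sets as a whole leaned the same way, and the counts have to be read against that. With the brightest probe set of each gene, 9 of the 10 genes had lower values in Brahman, where 51.7% of all 9155 named genes did and 62.1% of the 3674 genes brighter than the upper quartile of the array, to which all 10 belong. At an unadjusted p under 0.05, 2 of the 10 were lower, against 9.62% of all genes and 14.1% of the bright ones. The median of the 10 genes was -0.12, against -0.01 for all genes and -0.06 for the bright ones.

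**Figure D1:**
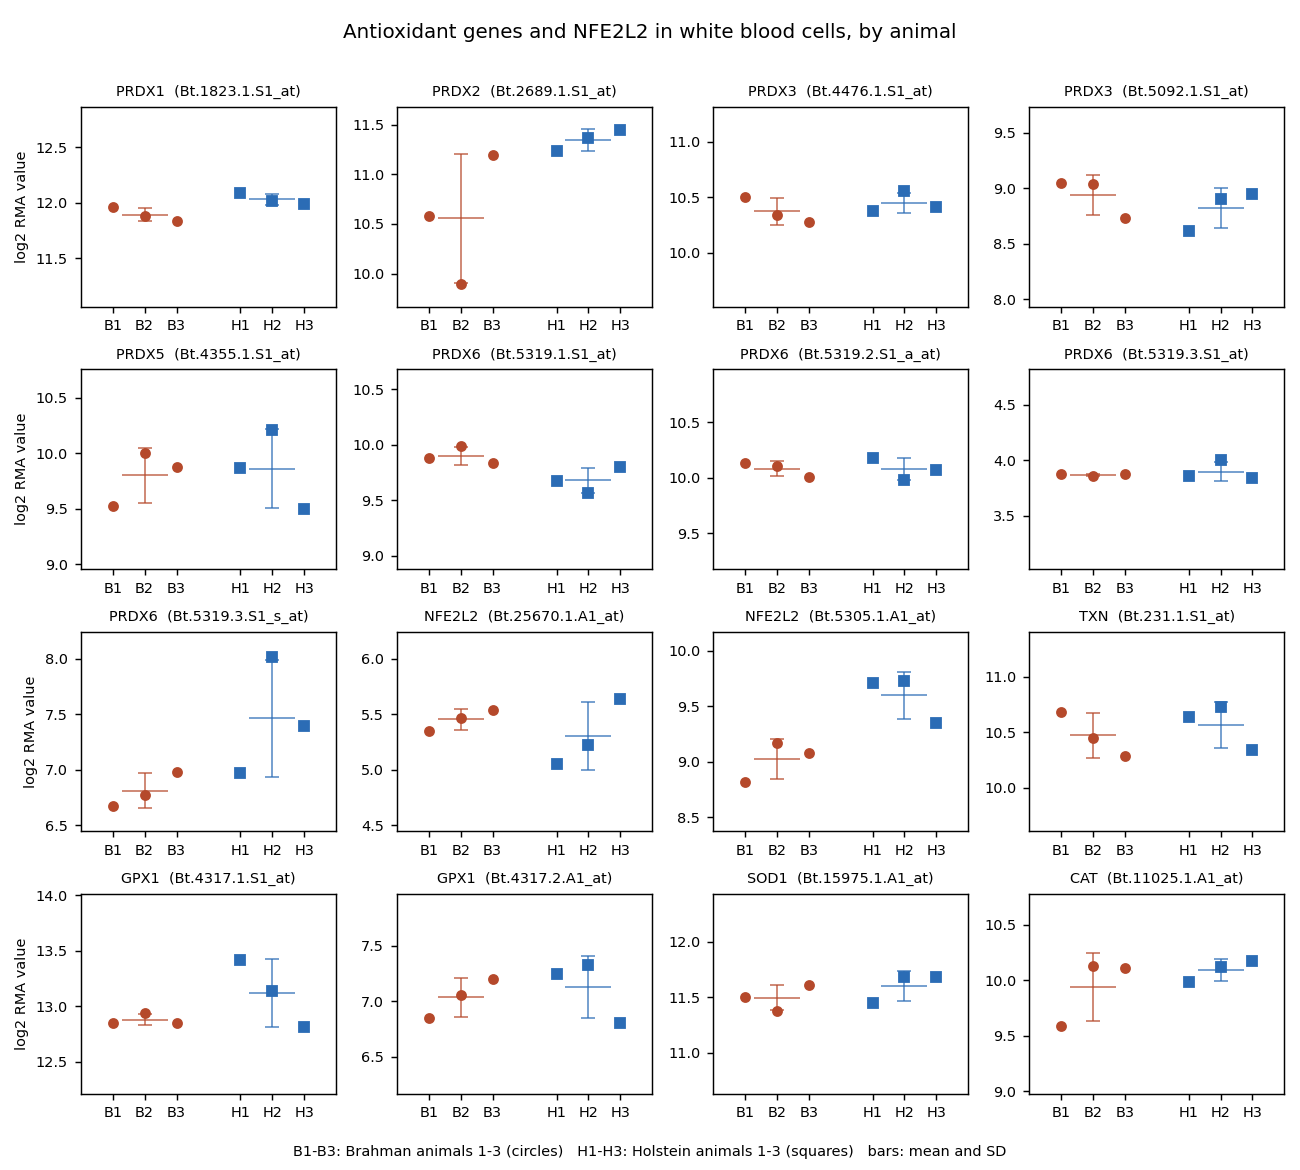
Log2 RMA value of each of the 16 probe sets by animal, with Brahman animals 1 to 3 as circles on the left and Holstein animals 1 to 3 as squares on the right of each panel; bars are the mean and SD of 3 animals. PRDX2 spreads widely among the Brahman animals, from 9.90 to 11.19, and NFE2L2 (Bt.5305.1.A1_at) separates the breeds.

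NFE2L2, the regulator of the group, had the smallest p-value of the 16. Its bright probe set, Bt.5305.1.A1_at, read 8.82, 9.17 and 9.08 in Brahman 1, 2 and 3, against 9.71, 9.72 and 9.35 in Holstein 1, 2 and 3. All Brahman animals lay below all Holstein animals, with a gap of 0.18 between Brahman 2 and Holstein 3. The difference was -0.57 (SE 0.14, 95% interval -0.91 to -0.24), or 1.49-fold higher in Holstein, with an unadjusted p of 0.00443 and an adjusted p of 0.190 (limma), rank 559 of all probe sets. Leaving out each animal in turn gave differences from -0.70 without Holstein 3 to -0.47 without Brahman 1, each at an unadjusted p under 0.05.

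The other NFE2L2 probe set did not repeat this difference. Bt.25670.1.A1_at read 5.35, 5.47 and 5.54 in Brahman, against 5.05, 5.22 and 5.64 in Holstein, so the breeds overlapped. Its difference was 0.15 (95% interval -0.22 to 0.51, adjusted p = 0.725). Without Holstein 3 it was 0.32 (limma, unadjusted p = 0.029, adjusted p = 0.254). These levels are close to the lower quartile of the array, and detection over background was not shown. For NFE2L2 the array thus gives 1 bright probe set and 1 dim one, with differences of opposite sign. The difference between the 2 probe sets was not tested.

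The genes whose values across the 6 animals most resembled those of the bright NFE2L2 probe set were TPT1 (r = 0.991), DYNLRB2 (0.990), TMEM219 (0.989) and TRAPPC1 (0.988), by Pearson correlation among 11000 named probe sets above the lower quartile. The points are the same 6 arrays and include the step between the breeds, and these are the highest of 11000 values. All 4 had lower values in Brahman, with differences of -0.47, -0.31, -0.48 and -0.36 and adjusted p-values from 0.208 to 0.281.

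PRDX2, a cytosolic peroxidase that is also among the abundant proteins of red cells, had the largest difference of the 16 probe sets. It read 10.58, 9.90 and 11.19 in Brahman 1, 2 and 3, against 11.23, 11.37 and 11.45 in Holstein 1, 2 and 3. The Holstein animals lay close together, whereas the Brahman animals spread over 1.30 log2 units, and Brahman 3 came within 0.04 of the lowest Holstein animal. Mean levels were 10.56 ± 0.65 in Brahman and 11.35 ± 0.11 in Holstein (SD, n = 3 each). The difference was -0.79 (SE 0.29, 95% interval -1.47 to -0.11), or 1.73-fold higher in Holstein, with an unadjusted p of 0.0277 and an adjusted p of 0.308 (limma).

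The size of the PRDX2 difference rested on which Brahman animals were included. It was -0.46 without Brahman 2 and -1.11 without Brahman 3, and 3 of the 6 fits with 1 animal left out had an unadjusted p under 0.05. The SD of PRDX2 among Brahman animals was larger than that of 98.9% of all probe sets, and among Holstein animals larger than that of 32.3%. Set against PRDX1 on the same array, PRDX2 was -1.38, -1.99 and -0.65 log2 units in Brahman and -0.86, -0.65 and -0.54 in Holstein. Only the change of this difference from array to array can be read, since the 2 probe sets have their own sensitivities, and Brahman 2 was again the lowest and Brahman 3 within the Holstein range.

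The red cell marker GYPC shared the order of PRDX2 among the Brahman animals and had the reverse order among the Holstein animals. GYPC, the gene of glycophorin C, a red cell membrane protein also made by leukocytes, read 9.25, 8.99 and 9.88 in Brahman, against 10.14, 10.03 and 9.92 in Holstein. Its difference was -0.66 (adjusted p = 0.274), and the breeds did not overlap. Of the 16 red cell markers 11 were measured, 9 of them above the lower quartile; AHSP and SLC4A1 lay below it. At an unadjusted p under 0.05, 2 of the 11 were lower in Brahman, GYPC and ALAS2, against 9.62% of all genes, and the median difference of the list was -0.03. Its summed level was 10.88 to 11.09 in Brahman and 10.87 to 11.47 in Holstein. Beta-globin (HBB) read 9.60, 10.15 and 9.61 in Brahman, against 9.91, 10.22 and 8.89 in Holstein, so Brahman 2 was the highest Brahman animal for HBB and the lowest for PRDX2. The part of red cell RNA in the PRDX2 values was not tested.

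The genes most like PRDX2 over the 6 arrays were TOP3B (r = 0.992), JMJD7 (0.991), RWDD2A (0.982) and UBAP2L (0.980), by the same measure among 11001 probe sets. Their differences were -0.47, -0.07, -0.37 and -0.14, with adjusted p-values from 0.330 to 0.774.

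**Figure D2:**
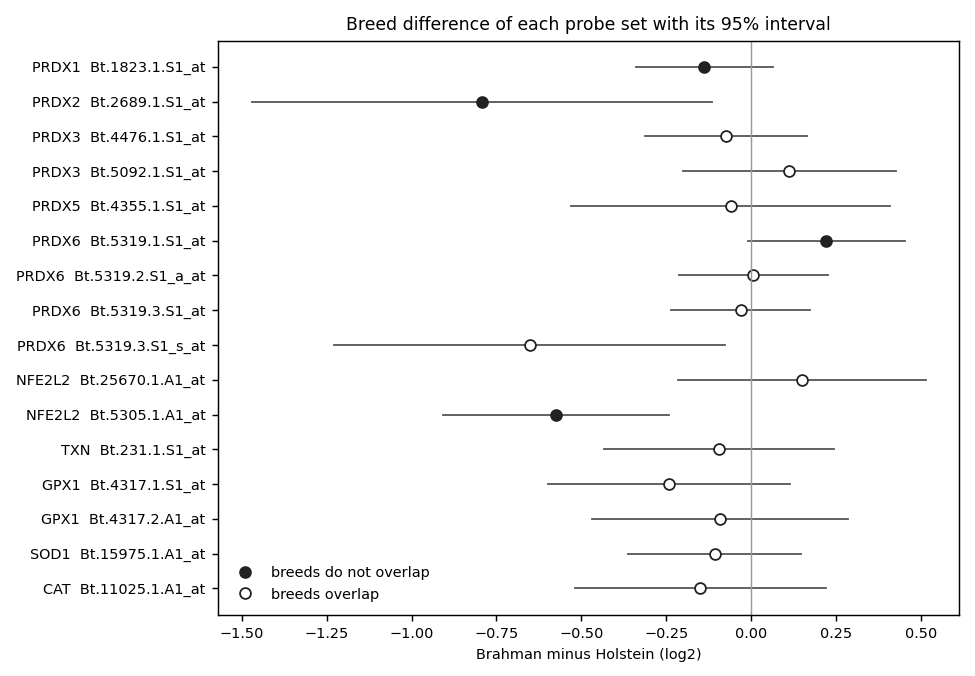
Brahman minus Holstein difference (log2) of each probe set with its 95% interval from limma; filled points mark probe sets whose breeds do not overlap. The intervals of NFE2L2 (Bt.5305.1.A1_at), PRDX2 and PRDX6 (Bt.5319.3.S1_s_at) lie below 0, and the other 13 include it.

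The remaining thioredoxin-dependent peroxiredoxins had smaller estimated differences than PRDX2, with intervals that reached both signs. PRDX1, the other main cytosolic form, read 11.96, 11.89 and 11.84 in Brahman, against 12.09, 12.02 and 11.99 in Holstein. The breeds did not overlap, but the gap was 0.03 and the difference -0.14 (95% interval -0.34 to 0.06, adjusted p = 0.530). Its spread was small in both breeds, with SDs of 0.06 and 0.05 in Brahman and Holstein.

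PRDX3, the mitochondrial form, had 2 probe sets with opposite signs and intervals that include 0. Bt.4476.1.S1_at read 10.51, 10.34 and 10.27 in Brahman, against 10.38, 10.55 and 10.41 in Holstein, a difference of -0.07 (95% interval -0.31 to 0.16). Bt.5092.1.S1_at read 9.04, 9.03 and 8.73 in Brahman, against 8.62, 8.90 and 8.95 in Holstein, a difference of 0.11 (95% interval -0.20 to 0.43). The breeds overlapped in both. PRDX5, which is found in mitochondria, peroxisomes and cytosol, read 9.52, 10.00 and 9.87 in Brahman, against 9.87, 10.21 and 9.50 in Holstein. Animals within a breed differed by up to 0.71, more than the breeds did (-0.06, 95% interval -0.53 to 0.41).

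PRDX6, a peroxiredoxin that draws on glutathione and also acts on phospholipids, was represented by 4 probe sets that gave no common direction. Bt.5319.1.S1_at read 9.88, 9.99 and 9.83 in Brahman, against 9.68, 9.57 and 9.80 in Holstein, higher in every Brahman animal with a gap of 0.04 (difference 0.22, 95% interval -0.01 to 0.45, adjusted p = 0.385). It was the only one of the 16 probe sets whose breeds did not overlap in that direction, against 11.7% of all probe sets. In the other direction, with Brahman lower, 3 of the 16 did not overlap, against 8.37% of all probe sets. At the brightest probe sets these were 3 of the 10 genes, against 12.2% of all genes and 18.1% of the bright ones. Bt.5319.2.S1_a_at was nearly the same in both breeds, at 10.13, 10.11 and 10.01 in Brahman and 10.17, 9.98 and 10.07 in Holstein (difference 0.01, 95% interval -0.21 to 0.23). Bt.5319.3.S1_at averaged 3.87 in Brahman and 3.90 in Holstein, below the lower quartile of the array and with no evidence of detection, so a decrease may not be seen there.

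The fourth PRDX6 probe set, Bt.5319.3.S1_s_at, had the lower values in Brahman. It read 6.67, 6.77 and 6.98 in Brahman, against 6.97, 8.02 and 7.40 in Holstein, and Brahman 3 overlapped Holstein 1. The difference was -0.65 (SE 0.25, unadjusted p = 0.0313, adjusted p = 0.320) and -0.37 without Holstein 2, the highest array. In the names of this array type the ending _s_at marks probes shared by several transcripts, so its assignment to PRDX6 alone is uncertain. Its values also followed the spike-in controls, which were lowest on Brahman 1 and highest on Holstein 2. After the spike-in level was added to the model the difference was 0.32 (unadjusted p = 0.0657), that is, the sign turned, and with the same term the NFE2L2 difference was -0.44 (unadjusted p = 0.154) and the PRDX2 difference -0.49 (unadjusted p = 0.418). The spike-in level separates the breeds, so the added term takes up part of any breed difference.

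Thioredoxin, which recharges the peroxiredoxins, overlapped between the breeds. TXN read 10.69, 10.45 and 10.29 in Brahman, against 10.64, 10.73 and 10.34 in Holstein, a difference of -0.09 (95% interval -0.43 to 0.25, adjusted p = 0.823). GPX1, the main cytosolic glutathione peroxidase, read 12.85, 12.94 and 12.85 in Brahman, against 13.42, 13.14 and 12.81 in Holstein. Holstein 1 was the highest and Holstein 3 the lowest of all 6 animals. The difference was -0.24 (95% interval -0.60 to 0.12, adjusted p = 0.536), -0.40 without Holstein 3 and -0.09 without Holstein 1. A second GPX1 probe set, Bt.4317.2.A1_at, averaged 7.04 in Brahman and 7.13 in Holstein, with overlap and a difference of -0.09.

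SOD1, the copper and zinc superoxide dismutase of the cytosol, read 11.50, 11.38 and 11.61 in Brahman, against 11.45, 11.68 and 11.68 in Holstein, a difference of -0.11 (95% interval -0.36 to 0.15). Catalase, the peroxisomal enzyme that splits hydrogen peroxide, read 9.59, 10.13 and 10.11 in Brahman, against 9.98, 10.12 and 10.17 in Holstein. Brahman 1 alone lay apart, and the difference of -0.15 (95% interval -0.52 to 0.22) was 0.03 without that animal. For both genes the breeds overlapped.

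**Figure D3:**
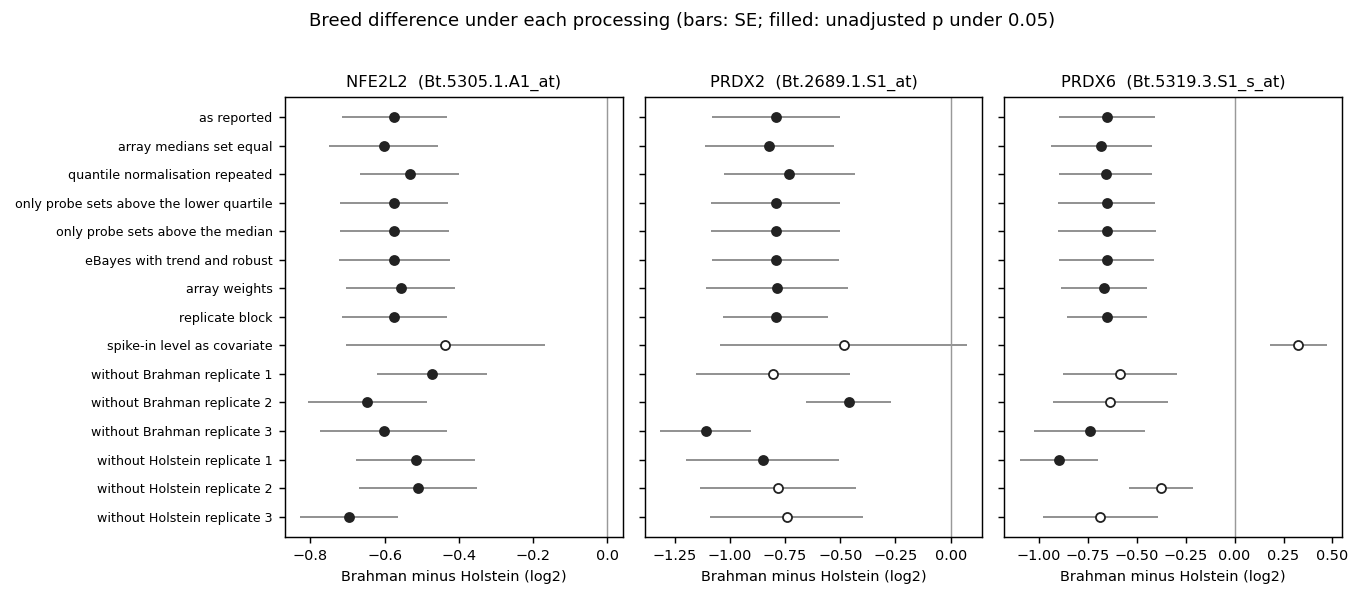
Brahman minus Holstein difference (log2, bars are SE) of the 3 probe sets with the smallest p-values, as reported and under each other processing or with 1 animal left out; filled points have an unadjusted p under 0.05. NFE2L2 stays between -0.70 and -0.44, PRDX2 between -1.11 and -0.46, and PRDX6 (Bt.5319.3.S1_s_at) turns to 0.32 once the spike-in level is in the model.

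Other genes of the same pathways also had mostly lower values in Brahman without passing over all probe sets. Of 58 listed genes 44 were measured, and at their brightest probe sets 32 had lower values (72.7%, against 51.7% of all genes and 62.1% of the bright ones). The median of the 44 differences was -0.13, against -0.01 for all genes and -0.06 for the bright ones, and it was -0.07 over every probe set of these genes. At an unadjusted p under 0.05, 6 were lower, 13.6% of the 44, against 9.62% of all genes and 14.1% of the bright ones, and 2 were higher, against 6.23% of all genes. At an adjusted p under 0.05 limma called 0 of them, against 0.164% of all genes. The breeds did not overlap, with Brahman lower, for 10 of the 44 (22.7%), against 12.2% of all genes and 18.1% of the bright ones. With Brahman higher they did not overlap for 3 of the 44, against 956 of all 9155 genes and 284 of the 3674 bright ones. Without Holstein 3 the count of genes lower at an unadjusted p under 0.05 was 14, where 7.80% of all probe sets were lower. After adding the spike-in level to the model the count was 0, where 4.42% of all probe sets were lower. These shares are of probe sets, whereas the counts are of genes at their brightest probe set. In the fit as reported, 6.47% of all probe sets were lower, against 9.62% of all genes and 14.1% of the bright ones. Shares of genes were not computed for the other fits, so neither count has a like-for-like share.

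TXNDC17, a small thioredoxin-like protein, had the smallest p-value of the list. It read 8.58, 8.55 and 8.41 in Brahman, against 9.15, 9.36 and 9.01 in Holstein, a gap of 0.43 between the breeds. The difference was -0.66 (SE 0.12, unadjusted p = 0.00059, adjusted p = 0.106). TXN2, the mitochondrial thioredoxin, read 8.85, 8.80 and 8.84 in Brahman, against 9.39, 9.36 and 9.05 in Holstein (difference -0.43, adjusted p = 0.201). The breeds did not overlap for either gene, nor for TXNRD1, the reductase that recharges TXN, at -0.21 (adjusted p = 0.413). For TXNRD1 the gap was only 0.01. The mitochondrial glutaredoxin GLRX2 differed by -0.38 (adjusted p = 0.267) and glutathione reductase, GSR, by 0.04 (adjusted p = 0.955).

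Genes tied to NFE2L2 had values in both directions. HMOX1, the inducible haem oxygenase and a well known NFE2L2 target, read 7.94, 8.09 and 7.89 in Brahman, against 8.89, 8.47 and 8.10 in Holstein, where Holstein 3 lay just above Brahman 2 (difference -0.51, adjusted p = 0.318). BLVRB, which reduces biliverdin, read 8.88, 8.96 and 8.79 in Brahman, against 9.53, 9.53 and 9.12 in Holstein (difference -0.52, adjusted p = 0.198). NQO1, another textbook target, averaged 4.89 in Brahman and 4.67 in Holstein, below the lower quartile of the array and not shown to be above background. The related quinone reductase NQO2 had higher values in every Brahman animal at its brightest probe set. These averaged 7.77 in Brahman and 7.56 in Holstein (difference 0.21, adjusted p = 0.329). Its other probe sets differed by 0.16, with overlap between the breeds, and by 0.18, with a gap of 0.002. KEAP1, the inhibitor of NFE2L2, differed by -0.32 at its brightest probe set (adjusted p = 0.419) and by -0.07 and 0.04 at its other probe sets.

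SOD2, the mitochondrial superoxide dismutase, also varied widely among animals. It read 9.87, 10.88 and 10.40 in Brahman, against 11.16, 11.37 and 10.58 in Holstein, with overlap between the breeds. Its difference was -0.65 (SE 0.28, unadjusted p = 0.0540, adjusted p = 0.376). Transketolase, TKT, differed by -0.47 (adjusted p = 0.234) and malic enzyme, ME1, by 0.23 (adjusted p = 0.326), each without overlap between the breeds.

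**Figure D4:**
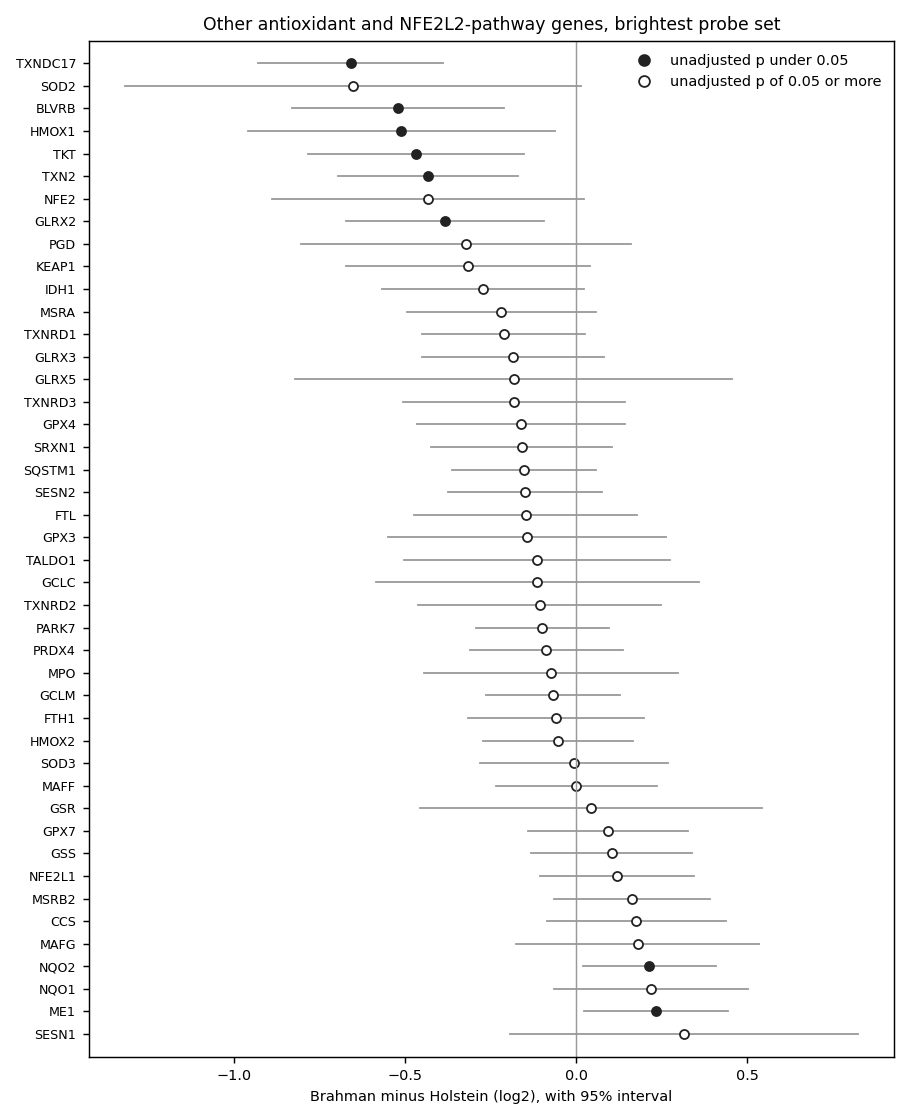
Brahman minus Holstein difference (log2) with its 95% interval for the 44 other antioxidant and NFE2L2-pathway genes at their brightest probe set, sorted by size; filled points have an unadjusted p under 0.05. The differences run from -0.66 (TXNDC17) to 0.32 (SESN1), and 6 filled points lie below 0 and 2 above it.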

How the data were processed

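Leukocyte RNA of 6 animals was hybridised to 1 array each. The deposited table holds log2 values, which per the submitters' processing notes come from RMA; no version of it is given in the sources used here. RMA equalises the distributions of the arrays, so a global change in RNA content is not seen, and the number of arrays limits the precision. Scanner intensities and detection calls were not used here.

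Groups came from the sample titles. Of 24128 probe sets, 112 controls were left out. The platform annotation gave 1 gene symbol to 13292 probe sets, several to 86 and none to 10638, and all 10 genes matched RefSeq by Entrez identifier. Coordinates are left out, since the sources name no genome build. The breeds were compared with limma 3.58.1 in R 4.3.3 (lmFit, eBayes, breed as the only term, two-sided, Benjamini-Hochberg over 24016 probe sets), which was tested on simulated data. An exact permutation test of 3 against 3 animals cannot give a two-sided p below 0.1.

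The genes and lists were chosen with earlier results of these data known. The rule for named genes takes all 10 genes with every probe set, the 8 genes of the wider list with the smallest p, the partners KEAP1, TXNRD1, GSR, SOD2, HMOX1 and NQO1, and the 4 genes most like each of the 2 probe sets with the smallest p. Single marker genes of the red cell, neutrophil and T cell lists, and SESN1, were chosen after their values were seen. Alternatives were other normalisations, array weights, removal of dim probe sets, trended robust priors, a replicate block, the spike-in level as a term, and each animal left out.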

Additional observations from a re-analysis of the deposited data

How the results depend on the processing

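Limma called 0 of the 16 probe sets and 0 of the 44 other genes in every alternative run, of which the filters on dim probe sets tested fewer. The count of the 16 lower in Brahman at an unadjusted p under 0.05 was 3, and 0 with the spike-in covariate; leaving out 1 animal gave 1 to 3. The count higher was 0, but 1 after repeated quantile normalisation and 0 to 2 with 1 animal left out. Of the 44, 6 were lower, but 8 with the replicate block, 0 with the spike-in covariate, and 4 to 14 with 1 animal left out. The 2 higher became 1 with array medians set equal, 0 with trend and robust priors, 0 with the replicate block and 1 with the spike-in covariate, and 0 to 2 with 1 animal left out. With the replicate block limma's count of lower probe sets stayed at 3, and its calls over all probe sets were 10, against 33 without it. Deviations from the breed means of same-numbered animals correlated at 0.11, -0.04 and -0.07, and 2 of 6 arrays correlated best with their own number.

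Signs turned for 1 of the larger differences, PRDX6 (Bt.5319.3.S1_s_at, -0.65 as reported), and for several small ones. With the spike-in covariate the differences were 0.014 (PRDX3, Bt.4476.1.S1_at), 0.40 (PRDX5), -0.19 (PRDX6, Bt.5319.2.S1_a_at), 0.10 (PRDX6, Bt.5319.3.S1_at), 0.32 (PRDX6, Bt.5319.3.S1_s_at), 0.16 (GPX1, Bt.4317.2.A1_at), 0.10 (SOD1) and 0.087 (CAT). With array medians set equal PRDX6 (Bt.5319.2.S1_a_at) was -0.022. With 1 animal left out the ranges that crossed 0 were -0.24 to 0.12 for PRDX5, -0.042 to 0.057 for PRDX6 (Bt.5319.2.S1_a_at), -0.060 to 0.019 for PRDX6 (Bt.5319.3.S1_at), -0.25 to 0.0093 for GPX1 (Bt.4317.2.A1_at) and -0.24 to 0.028 for CAT. The cause was not tested. Dim probe sets near the lower quartile of the array limit what can be said of low transcripts.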
